A study of Homo sapiens with 16 samples.

Results

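NFE2L2, the gene for the transcription factor NRF2, and 8 genes that NRF2 is known to drive (NQO1, GCLC, GCLM, TXNRD1, SRXN1, ME1, SLC7A11 and HMOX1) were followed across A549 cells treated with 3 coded compounds. The 9 genes were taken by name from 39576 gene names, each had 1 row in every one of the 16 deposited tables, and all 9 passed the filter on low values (15285 genes tested). A549 is a human lung carcinoma line, and every culture here, controls included, overexpressed CD63-Nluc, a fusion of the vesicle protein CD63 with the NanoLuc luciferase. Cells received 5G6, 6D7 or 7F8, labelled inhibitors at 4 µM, or DMSO, the solvent control (its label carries the same concentration), for 4 h or 48 h. Each of the 8 groups had 2 biological replicates, which the labels do not tie to a shared day or batch, so the p-values measure only the spread between these samples.

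NRF2 is held in the cytoplasm by KEAP1, which hands it to an ubiquitin ligase for destruction. Oxidants and electrophiles that modify KEAP1 let NRF2 build up, enter the nucleus, pair with a small MAF protein and bind antioxidant response elements in front of its targets. NRF2 is controlled mainly as a protein, so the NFE2L2 transcript is not a readout of its activity. A549 cells carry a KEAP1 mutation that weakens this control, and their NRF2 targets are known to run high without any treatment. BACH1 represses several of the same elements, HMOX1 above all, and the stress factor ATF4 also drives SLC7A11.

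The antioxidant response element core, TGACNNNGC (GCNNNGTCA on the other strand), was searched in the 250 bases before the RefSeq start sites (build GRCh38.p14) to show which members carry these letters close to their start. RefSeq starts were matched for 7 of the 9 genes, at 9 start sites; SLC7A11 and HMOX1 had no match. The core was present at 4 of the 9 starts (GCLM, ME1 and both starts of TXNRD1), against 10.9% of all 35116 starts searched in the same way. The letters of the C/EBP-ATF response element core, TGATGNAA (TTNCATCA on the other strand), which ATF4 is known to bind, were at 0 of the 9, against 3.14% of all starts. A share this low makes 0 of 9 uninformative, and SLC7A11, which ATF4 drives, was not among the starts searched. The matches are printed below 5′ to 3′ on the gene's own strand with the core in capitals, and a match is a description of the letters only.
GCLM, chr1:93909441-93909479, minus strand, core first base 34 bases before the start: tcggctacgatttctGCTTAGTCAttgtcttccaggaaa
TXNRD1, first start, chr12:104215665-104215703, plus strand, 99 bases before the start: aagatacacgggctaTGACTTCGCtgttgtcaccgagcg
TXNRD1, second start, chr12:104286915-104286953, plus strand, 102 bases before the start: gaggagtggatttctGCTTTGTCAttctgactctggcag
ME1, chr6:83431165-83431203, minus strand, 137 bases before the start: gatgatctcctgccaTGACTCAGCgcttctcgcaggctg

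The libraries held 6.10 to 8.86 aligned gigabases and 13013 to 14568 genes at 1 TPM or more, where TPM is the deposited level per transcript length, scaled to one total in every library. Of the epithelial markers, KRT8 lay between 1147 and 3130 TPM and KRT18 between 487 and 1921 TPM, KRT7 between 1194 and 2327 TPM, KRT19 between 11.3 and 329 TPM and CDH1 between 9.13 and 36.7 TPM. EPCAM was low (0.254 to 8.33 TPM), and PTPRC of blood cells reached at most 0.0719 TPM and PECAM1 of endothelium at most 0.399 TPM. Of the fibroblast markers, COL1A1 lay between 2.27 and 14.4 TPM, while COL1A2 was at 0 and PDGFRB reached at most 0.1085 TPM. The lung markers NKX2-1 and SFTPC were nearly absent, at most 0.265 and 0.424 TPM. A mitochondrial tRNA gene, TRNC, took from 0 to 28.6% of all TPM and was at 0 in both 6D7 libraries at 48 h. The median log2 change of all genes at 48 h was -0.07 with 5G6, 0.29 with 6D7 and -0.21 with 7F8. Once TRNC and TRNY were left out of the total it was -0.06, -0.06 and -0.17, so the 6D7 shift went with them and most of the 5G6 and 7F8 shifts did not. Scaling by median-of-ratios size factors (0.824 to 1.39) brought the medians to 0.003, 0.006 and 0.0009. The calls that this scaling ends are given below with the results, and the member changes whose sign it turns are given together.

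In the 4 DMSO libraries the pathway's transcripts were abundant. NQO1, a quinone reductase often used to report NRF2, had a mean of 1274 TPM there and rank 89 among the tested genes, TXNRD1 had rank 147, SRXN1 rank 291 and HMOX1 rank 466. The other 5 stood lower, from NFE2L2, above 85.7% of tested genes, to GCLC, above 91.3%. None of the 9 was called changed by any compound against DMSO of the same hour (limma on log2(TPM + 1), Benjamini-Hochberg adjusted p under 0.05 over all tested genes). At 4 h there was little to call anywhere, since 0.0196% of all tested genes were called with 5G6, 0% with 6D7 and 0% with 7F8. At 48 h the same test called 0 of 9 members again, where it called 3.38% of all genes for 5G6, 12.4% for 6D7 and 8.49% for 7F8. These bulk values do not separate a change in every cell from a change in some cells. Unadjusted p was under 0.05 for 0 members in each 4 h comparison, for 1 (SLC7A11) with 5G6 at 48 h, for 0 with 6D7 and for 3 (HMOX1, GCLM and ME1) with 7F8. Over all 15285 tested genes, unadjusted p was under 0.05 at 4 h for 597, 180 and 743 with 5G6, 6D7 and 7F8. At 48 h it was for 2769, 4480 and 3802.

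**Figure D1:**
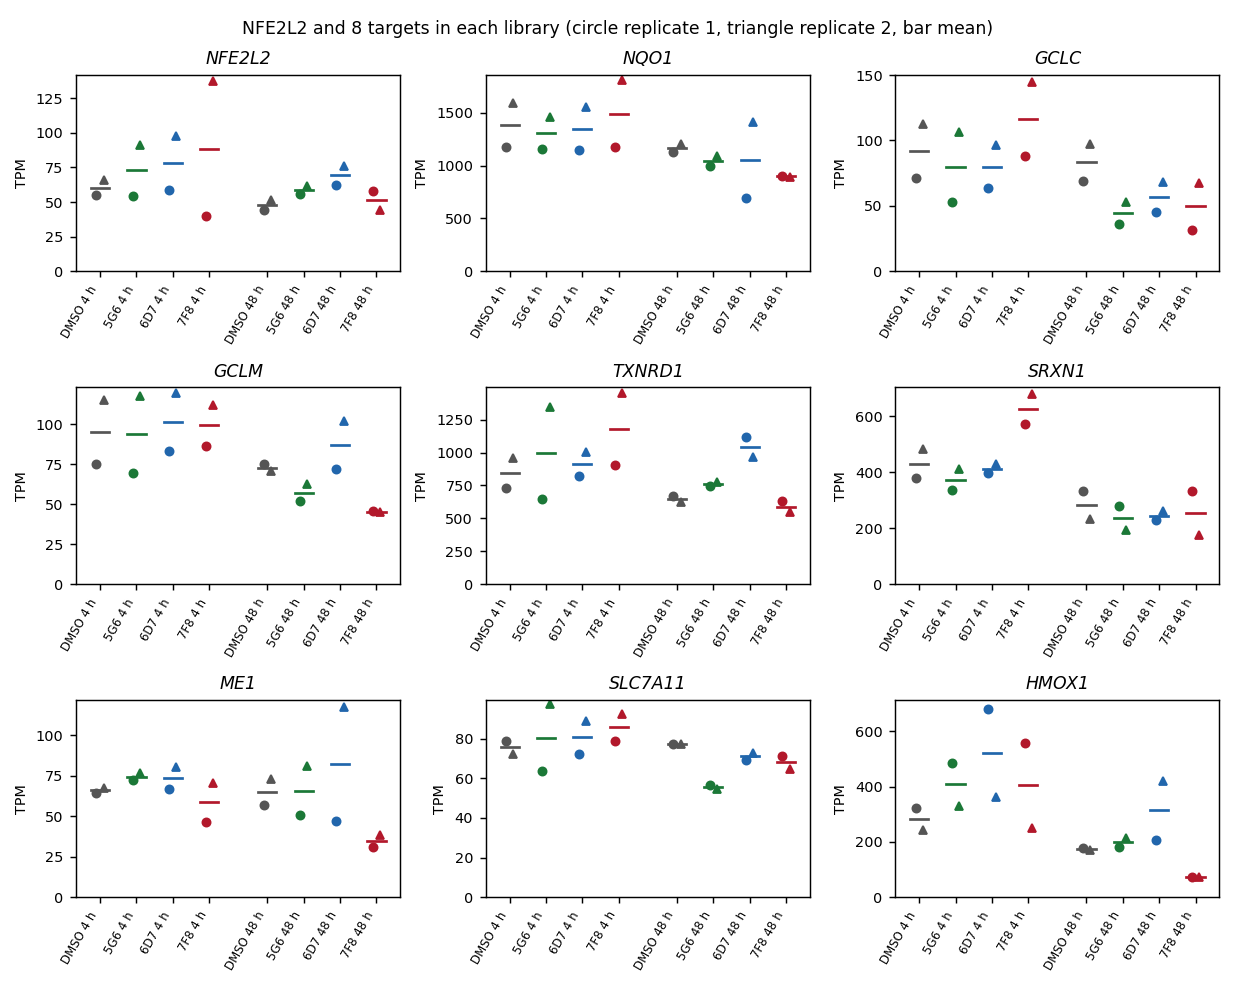
TPM (y axis, from 0) of NFE2L2 and its 8 targets in the 8 groups (x axis), with a circle for replicate 1, a triangle for replicate 2 and a bar for the mean. HMOX1 in both 7F8 libraries at 48 h (73.3 and 72.7 TPM) and GCLC in the 6 compound libraries at 48 h lie under both DMSO libraries of that hour.

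The wide intervals limit what these zeros mean. Of the 54 member-by-compound log2 fold changes, 29 had a 95% interval that stayed within 2-fold either way, and the half-widths ran from 0.439 to 0.996. Median member changes were 0.06, 0.10 and 0.29 at 4 h for 5G6, 6D7 and 7F8, beside all-gene medians of 0.13, 0.04 and -0.10. At 48 h they were -0.16, 0.21 and -0.37, beside -0.07, 0.29 and -0.21. After median-of-ratios scaling the medians at 48 h were -0.07, -0.12 and -0.12, so the sign with 6D7 turned. With that scaling the median at 4 h with 5G6 also turned, to -0.11. Single members turned too, all from changes under 0.4 that were not called. With 6D7 at 48 h GCLM went from 0.24 to -0.10 and ME1 from 0.21 to -0.12. With 7F8 at 48 h TXNRD1 went from -0.15 to 0.11, SRXN1 from -0.20 to 0.06 and SLC7A11 from -0.19 to 0.07. With 5G6 TXNRD1 and SLC7A11 at 4 h went from 0.16 to -0.02 and from 0.06 to -0.11, and ME1 at 48 h from -0.004 to 0.08.

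Groups that did not overlap, meaning both compound libraries above or both below the 2 DMSO libraries, were no more common among the members than elsewhere at 4 h: 2 members with 5G6 (HMOX1 and ME1), 1 with 6D7 (HMOX1) and 1 with 7F8 (SRXN1), all above, against 32.1%, 22.6% and 32.9% of all tested genes in either direction. At 48 h there were 3 above and 4 below with 5G6, 3 above and 2 below with 6D7, and 0 above and 6 below with 7F8, against 47.4%, 55.3% and 56.3% of all genes. By direction, the shares of all genes at 48 h were 19.4% above and 27.9% below with 5G6, 45.2% and 10% with 6D7, and 15.1% and 41.1% with 7F8. The 3 comparisons of an hour share their DMSO libraries.

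**Figure D2:**
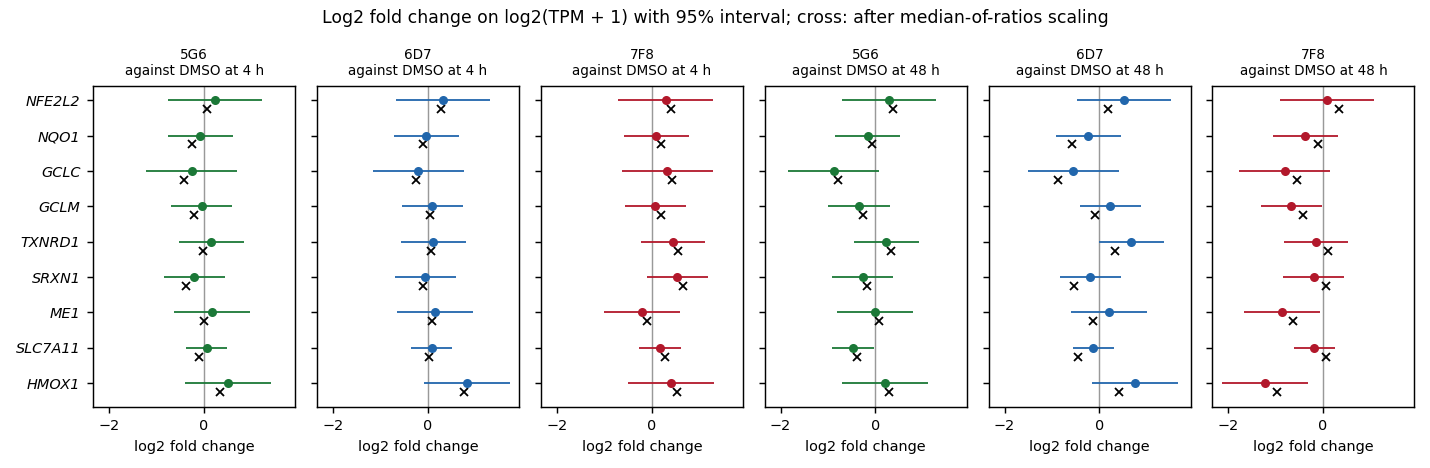
Log2 fold change against DMSO (x axis) of each member (y axis) with its 95% interval, one panel per compound and hour; a black cross gives the value after median-of-ratios scaling. No member passed the adjusted test, and HMOX1 with 7F8 at 48 h (-1.24) is the change of greatest size among the 54.

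NFE2L2 (chr2:177230303-177265131, minus strand, GRCh38), the factor itself, differed more between replicates than between groups at 4 h. Its TPM was 55.1 and 65.6 in DMSO at 4 h, 54.6 and 91.4 with 5G6, 58.7 and 97.7 with 6D7, and 39.7 and 137.2 with 7F8. The lowest and the highest library of the whole series for NFE2L2 were thus the 2 replicates of 1 group. At 48 h it was 44.0 and 51.6 in DMSO, 55.5 and 61.6 with 5G6, 62.5 and 75.9 with 6D7, and 58.2 and 44.2 with 7F8. Both 5G6 and both 6D7 libraries lay above DMSO, yet with 6D7 the log2 change of 0.52 ± 0.46 (SE) had an adjusted p of 0.487 and fell to 0.19 after median-of-ratios scaling.

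Of the factors that hold or release NRF2, KEAP1 ran from 59.4 and 53.8 TPM in DMSO at 48 h to 47.0 and 33.5 with 7F8 (log2 -0.50, adjusted p = 0.234) and was not called. BACH1 was low, at 3.97 and 9.09 TPM in DMSO at 48 h and 12.9 and 19.4 with 6D7 (log2 1.25, adjusted p = 0.232). MAFF, a small MAF partner, stood at 5.87 and 10.3 TPM in DMSO and 73.2 and 27.1 with 6D7 at 48 h (log2 2.37, adjusted p = 0.0634), and MAFG at 38.2 and 46.6 against 71.5 and 67.1 (log2 0.70, adjusted p = 0.11). MAFK, another small MAF, did pass limma's threshold at 48 h under 6D7 (log2 0.78, adjusted p = 0.0424). Median-of-ratios scaling ended that call (0.45, adjusted p = 0.314). Of the other control genes, NFE2L1 (1.16, adjusted p = 0.0244) and SYVN1 (1.08, adjusted p = 0.0244) passed too. After that scaling NFE2L1 still did (0.82, adjusted p = 0.0473) and SYVN1 did not (0.75, adjusted p = 0.182). Under 7F8 at 48 h NFE2L3 passed (0.80, adjusted p = 0.0309), also after scaling (1.04, adjusted p = 0.0134). SQSTM1, the autophagy receptor p62 that can tie up KEAP1 and is itself an NRF2 target, rose with all 3 compounds at 48 h. At 4 h it read 1358 and 1923 TPM with 7F8 against 556 and 877 in DMSO (log2 1.21, adjusted p = 0.539). At 48 h it was at 490 and 482 TPM in DMSO, 1475 and 1191 with 5G6, 2438 and 1801 with 6D7, and 1803 and 2084 with 7F8. The log2 rises were 1.45 ± 0.27, 2.11 ± 0.27 and 1.99 ± 0.27 (SE), with limma adjusted p of 0.0185, 0.00154 and 0.00367, and 1.53, 1.77 and 2.25 after median-of-ratios scaling, all still called. The 5G6 call was lost without any one of its 4 libraries (adjusted p = 0.16 and 0.0817 without DMSO replicate 1 or 2, 0.144 and 0.0744 without 5G6 replicate 1 or 2), and the 7F8 call without DMSO replicate 1 (adjusted p = 0.0526). Fitted on the libraries of 48 h alone, the 5G6 rise had an adjusted p of 0.0658, while the 6D7 call passed in each of these fits.

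Among the enzymes that act on quinones and oxidized thiols, NQO1 (chr16:69709401-69726668, minus strand) was not called in any comparison. It was 1172 and 1593 TPM in DMSO at 4 h and 1124 and 1205 TPM at 48 h, and its log2 changes over the 6 comparisons ran from -0.37 to 0.09. The 6D7 libraries at 48 h stood far apart, at 693 and 1413 TPM, and their log2 value of -0.23 was -0.57 after median-of-ratios scaling. Both 5G6 libraries (993 and 1089 TPM) and both 7F8 libraries (901 and 894 TPM) of 48 h lay under DMSO, and the 95% interval with 7F8 reached -1.06. TXNRD1 (chr12:104215779-104350307, plus strand), which reduces thioredoxin, was at 672 and 628 TPM in DMSO at 48 h and at 1116 and 969 with 6D7. Its log2 difference there was 0.68 ± 0.31 (SE), adjusted p = 0.172, and 0.34 after median-of-ratios scaling. With 7F8 at 4 h TXNRD1 was at 906.5 and 1450 TPM against 731 and 957 in DMSO, a log2 value of 0.45 with overlapping groups. SRXN1 (chr20:646615-653370, minus strand), which restores overoxidized peroxiredoxins, was the only member whose 2 libraries with 7F8 at 4 h stood clear of DMSO. It read 574 and 678 TPM there against 380 and 483 in DMSO, a log2 difference of 0.54 that was not called. By 48 h SRXN1 was at 334 and 177 TPM with 7F8, which overlapped DMSO at 334 and 233.

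For glutathione synthesis, GCLC (chr6:53497341-53545129, minus strand), the catalytic subunit of glutamate-cysteine ligase, was below both DMSO libraries in 6 of 6 compound libraries at 48 h. DMSO stood at 69.2 and 97.4 TPM, 5G6 at 36.3 and 53.3, 6D7 at 45.5 and 68.3, and 7F8 at 31.8 and 67.6. The log2 differences were -0.88, -0.55 and -0.81, each ± 0.44 (SE), with adjusted p of 0.319, 0.443 and 0.285. Replicate 2 was above replicate 1 for GCLC in all 8 groups, so part of its spread followed the replicate number. ME1 had the same order in all 8 groups, NFE2L2 and NQO1 in 7, and the other members in 2 (HMOX1) to 6 (GCLM). GCLM (chr1:93885199-93910370, minus strand), the modifier subunit, was at 74.9 and 70.4 TPM in DMSO at 48 h and at 45.7 and 44.9 with 7F8, a log2 difference of -0.67 with a 95% interval of -1.31 to -0.02 and an adjusted p of 0.185. With 6D7 GCLM was at 72.0 and 102.1 TPM and overlapped DMSO. SLC7A11 (chr4:138164097-138242349, minus strand), the cystine importer, moved the least of all members over the series, 1.78-fold from its lowest to its highest library. It was at 77.5 and 77.7 TPM in DMSO at 48 h and at 56.5 and 54.8 with 5G6, a log2 difference of -0.47 with a 95% interval of -0.91 to -0.03, adjusted p = 0.241. SLC3A2, the partner chain of that importer, was not called in any of the 6 comparisons, nor was GSR, which regenerates glutathione.

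ME1 (chr6:83210402-83431078, minus strand), the cytosolic malic enzyme that supplies NADPH, was lowest with 7F8 at 48 h. It read 30.9 and 38.4 TPM there against 56.6 and 72.7 in DMSO, a log2 difference of -0.88 with a 95% interval of -1.68 to -0.08, adjusted p = 0.163. The 6D7 libraries at 48 h, 46.9 and 117.3 TPM, fell on both sides of DMSO. PGD, which supplies NADPH through the pentose phosphate pathway, was not called in any of the 6 comparisons; with 7F8 at 48 h its log2 value was -0.47.

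HMOX1 (chr22:35381096-35394207, plus strand), heme oxygenase, was the member with the widest span, 9.39-fold between its lowest and highest library. At 4 h it was at 324 and 242 TPM in DMSO, 486 and 331 with 5G6, 682 and 362 with 6D7, and 558 and 251 with 7F8. Both 5G6 and both 6D7 libraries lay above DMSO, with log2 differences of 0.52 and 0.83 ± 0.42 (SE), and the 7F8 value of 0.42 turned to -0.16 without 7F8 replicate 1. At 48 h HMOX1 was at 177 and 169 TPM in DMSO, 183 and 215 with 5G6, 206 and 421 with 6D7, and 73.3 and 72.7 with 7F8. The 2 last libraries were the lowest of all 16, 2.37-fold under the DMSO mean. The log2 difference for 7F8 against DMSO was -1.24 ± 0.42 (SE), 95% interval -2.14 to -0.33, adjusted p = 0.0883, and -0.98 with adjusted p = 0.199 after median-of-ratios scaling. For 6D7 it was 0.76, adjusted p = 0.247.

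The 3 compounds were compared with each other at the matched concentration, in 3 pairs at each hour. HMOX1 between 6D7 and 7F8 at 48 h was the only member difference called, in a comparison that called 16.5% of all genes. Mean HMOX1 was 313.6 ± 151.6 TPM (SD, n = 2) with 6D7 and 73.0 ± 0.48 TPM (SD, n = 2) with 7F8, and limma gave a log2 difference of 2.00 ± 0.42 (SE), 95% interval 1.09 to 2.91, adjusted p = 0.0152. After median-of-ratios scaling that comparison called 0.478% of all genes, and HMOX1, at 1.41 with an adjusted p of 0.212, was no longer among them. With TPM recomputed without TRNC and TRNY it was 1.54, adjusted p = 0.184. It was also lost without 6D7 replicate 2 (1.49, adjusted p = 0.055), 7F8 replicate 1 (2.01, adjusted p = 0.0916) or 7F8 replicate 2 (1.99, adjusted p = 0.0554). GCLM (0.91, adjusted p = 0.0548), ME1 (1.09, adjusted p = 0.0604) and TXNRD1 (0.83, adjusted p = 0.0818) were also higher in mean with 6D7 than with 7F8 without passing limma's threshold, and shrank to 0.32, 0.50 and 0.23 after median-of-ratios scaling.

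5G6 against 7F8 at 48 h called 0.34% of all genes and 0 of 9 members. An unadjusted p under 0.05 was found for 2 members (HMOX1 and ME1) and for 1387 of the 15285 tested genes. HMOX1 differed there by 1.43 on the log2 scale, 95% interval 0.52 to 2.34, limma adjusted p = 0.221. 5G6 against 6D7 at 48 h called 0.0196% of genes and 0 members. Unadjusted p was under 0.05 for 0 members and 2946 of all genes, and the HMOX1 interval of -1.48 to 0.34 leaves room for a difference in either direction. At 4 h the 3 pairs called 0% (5G6 against 6D7), 0.0131% (5G6 against 7F8) and 0% (6D7 against 7F8) of genes and 0 members. SRXN1 in 5G6 against 7F8 (-0.74, 95% interval -1.39 to -0.10) was the 1 member at an unadjusted p under 0.05. Over all genes the 3 pairs, in the same order, had 177, 1794 and 935 at that level.

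No member's response changed between the hours by the test of the difference itself, the effect at 48 h minus the effect at 4 h, which called 0%, 0.0393% and 0.00654% of all genes for 5G6, 6D7 and 7F8. HMOX1 with 7F8 came closest (-1.65, 95% interval -2.94 to -0.37, adjusted p = 0.471), and it alone had an unadjusted p under 0.05. In DMSO itself 0% of genes and 0 members were called between 48 h and 4 h. Unadjusted p was under 0.05 for 0 members and 250 of all genes, and HMOX1 (log2 -0.69) and SRXN1 (-0.62) had the members' lowest values.

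The pathway outside these 9 genes was read from 86 others in 6 lists, all of which passed the filter. Of the 86, CHAC1 and SLC3A2 are also in the list of 17 ATF4 genes read below. CHAC1 is thus counted in both sets of calls at 48 h with 5G6 and with 6D7. At 4 h 3 of 86 had an unadjusted limma p under 0.05 with each compound. Among all 15285 tested genes this held for 597 with 5G6, 180 with 6D7 and 743 with 7F8. At that hour limma called 0 of 86 with each compound. At 48 h it called 4 higher and 0 lower with 5G6, 15 higher and 0 lower with 6D7, and 6 higher and 5 lower with 7F8. These are 4.65%, 17.4% and 12.8% of the 86, beside 3.38%, 12.4% and 8.49% of all tested genes. Once libraries were scaled by median-of-ratios factors, the higher and lower counts became 4 and 0, 6 and 2, and 6 and 3, or 4.65%, 9.30% and 10.5%, beside 3.89%, 6.25% and 7.43% of all genes. The medians of the 86 were -0.12, 0.12 and -0.26 beside the all-gene medians given above.

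**Figure D3:**
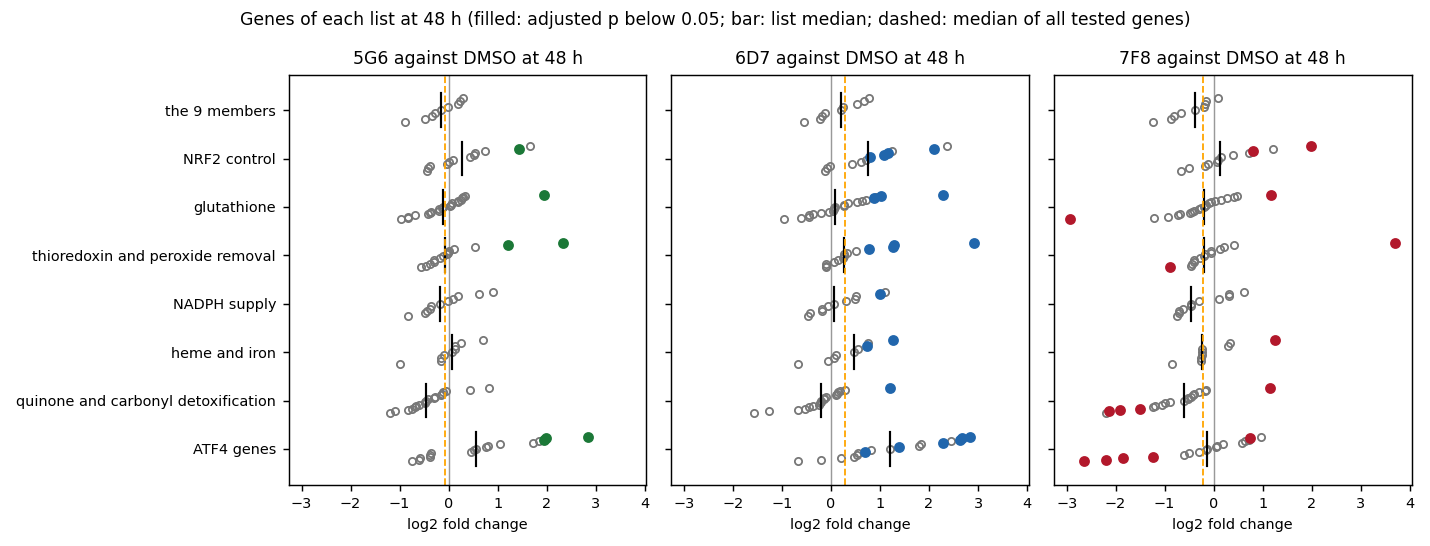
Log2 fold change against DMSO at 48 h (x axis) of every gene of the members and 7 lists (y axis); filled points passed an adjusted p of 0.05, black bars are list medians and the dashed line is the median of all tested genes. Genes of quinone and carbonyl detoxification have 1 of 19 above 0 with 7F8, where 67% of all tested genes lie below 0, and 3 of 19 above 0 after median-of-ratios scaling. With 7F8 3 of them were called lower and 1 higher. Most genes of this list also lie below 0 with 5G6, where 56.4% of all tested genes do.

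Of the genes that rose at 48 h, SOD2, the mitochondrial superoxide dismutase, did so with all 3 compounds, from 158 and 131 TPM in DMSO to 759 and 695 with 5G6, 1562 and 752 with 6D7, and 2240 and 1594 with 7F8 (log2 2.33, 2.91 and 3.71; the 5G6 call was lost without DMSO replicate 1, adjusted p = 0.0552). SOD2 is known to answer inflammatory signalling as well as NRF2. FTH1, the ferritin heavy chain that stores iron, rose from 5827 and 6811 TPM to 16032 and 14397 with 6D7 and to 16407 and 13554 with 7F8. Its log2 rises were 1.27 (adjusted p = 0.00607) and 1.24 (adjusted p = 0.00977); the 6D7 value was 0.93 and not called after median-of-ratios scaling. Without DMSO replicate 1 the FTH1 adjusted p was 0.0755 with 6D7 and 0.0998 with 7F8, and without 7F8 replicate 1 it was 0.113; with no filter on low values it was 0.0842 and 0.117. FTL, the ferritin light chain, was not called (0.75 and 0.34 with 6D7 and 7F8). GPX4, which clears lipid peroxides, rose by 1.02 with 6D7 and 1.17 with 7F8, and AKR1B1, aldose reductase, by 1.21 and 1.15; after median-of-ratios scaling GPX4 and AKR1B1 were called with 7F8 only.

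The genes that fell with 7F8 at 48 h included GPX2, AKR1B10 and NR0B1, which are known as NRF2-linked genes of KEAP1-mutant lung cancer cells. GPX2, a glutathione peroxidase, fell from 318 and 394 TPM in DMSO to 24.4 and 84.6 (log2 -2.93 ± 0.61 SE, adjusted p = 0.0161). AKR1B10, an aldo-keto reductase, fell from 3650 and 3986 TPM to 909 and 1126 (-1.91 ± 0.38, adjusted p = 0.014). NR0B1, a nuclear receptor named here after its values were seen, fell from 37.5 and 58.9 TPM to 6.58 and 14.9 (-2.13 ± 0.53, adjusted p = 0.031). These 3 stayed called after median-of-ratios scaling, at -2.68, -1.66 and -1.89. TRIM16L fell from 153 and 142 TPM to 52.0 and 49.7 (-1.51, adjusted p = 0.0201) and TXNRD2, the mitochondrial thioredoxin reductase, from 22.7 and 20.0 to 11.4 and 10.6 (-0.90, adjusted p = 0.031), but after that scaling TRIM16L (-1.26, adjusted p = 0.0638) and TXNRD2 (-0.66, adjusted p = 0.156) were not called, and both were lost without any one of their 4 libraries (adjusted p of 0.0694 to 0.143 for TRIM16L and 0.0941 to 0.173 for TXNRD2).

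**Figure D4:**
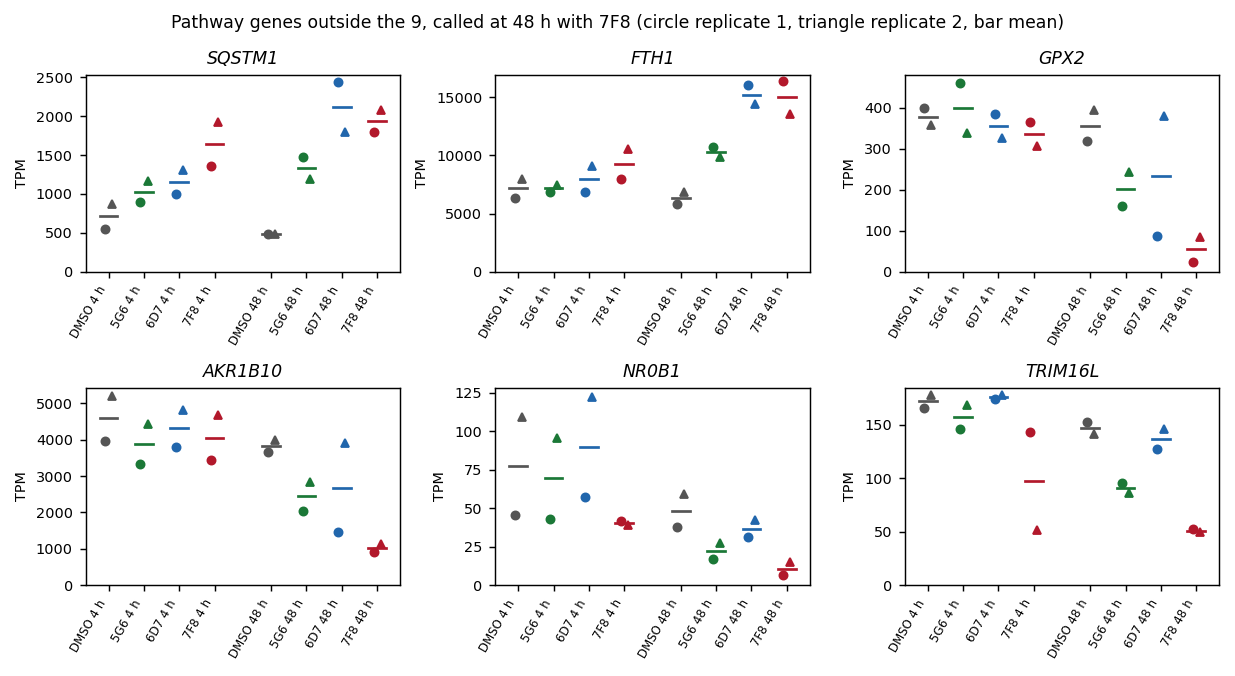
TPM (y axis, from 0) of 6 pathway genes called with 7F8 at 48 h, by group (x axis), circle for replicate 1, triangle for replicate 2, bar for the mean. SQSTM1 and FTH1 stand high and GPX2, AKR1B10, NR0B1 and TRIM16L low in both 7F8 libraries at 48 h.

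These falls rested on 2 libraries a side. Without DMSO replicate 1, DMSO replicate 2 or 7F8 replicate 1 the adjusted p was 0.102, 0.0827 and 0.162 for GPX2, 0.0998, 0.0737 and 0.138 for AKR1B10, and 0.11, 0.171 and 0.256 for NR0B1, with the same sign each time. Fitted on the libraries of 48 h alone, the adjusted p was 0.0852, 0.0678 and 0.0582. The whole count of 11 with 7F8 became 1, 4 and 3 without those libraries, and the 15 with 6D7 became 3, 9 and 9 without DMSO replicate 1, DMSO replicate 2 or 6D7 replicate 1. The 4 with 5G6 became 0 without DMSO replicate 1 and 1 without any other of its libraries. The genes kept through every such omission were PRDX5, SOD2 and SQSTM1 with 6D7 and SOD2 with 7F8.

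GPX2, AKR1B10 and NR0B1 were not called with 5G6 or 6D7 against DMSO. Their log2 values were -0.84, -0.66 and -1.09 with 5G6 and -0.96, -0.68 and -0.36 with 6D7. The direct comparison of 6D7 with 7F8 called all 3 (1.97, 1.23 and 1.76 higher with 6D7, adjusted p = 0.0466, 0.0467 and 0.0429), and none after median-of-ratios scaling (adjusted p = 0.363, 0.518 and 0.358). The 6D7 libraries at 48 h stood far apart for GPX2 (86.2 and 380 TPM) and AKR1B10 (1450 and 3915 TPM), less so for NR0B1 (31.0 and 42.6 TPM). GPX2 in 6D7 replicate 1 was close to 7F8 replicate 2 (84.6 TPM). With 5G6 against 7F8 the differences of 2.10, 1.25 and 1.04 had adjusted p of 0.219, 0.248 and 0.632. TXN and PRDX1, abundant thioredoxin-system targets at 1216 to 1723 TPM in the DMSO libraries of 48 h, were not called in any of the 6 comparisons against DMSO.

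SLC7A11 is driven by ATF4 as well as by NRF2, so a list of 17 genes was read beside it, ATF4 itself and genes known to be under ATF4 control. At 48 h 3 were called higher with 5G6 and 6 with 6D7 (0 lower in both), while with 7F8 1 was higher and 4 were lower. Over all genes 1.87% were higher with 5G6, 10.9% were higher with 6D7, and 2.08% were higher and 6.40% lower with 7F8. With median-of-ratios factors the higher and lower counts became 3 and 0, 4 and 0, and 1 and 3. With those factors 2.44% of all genes were higher with 5G6, 3.05% higher with 6D7, and 3.65% higher and 3.78% lower with 7F8. ATF4 itself was 1 of the 6 called with 6D7 (log2 1.39, limma adjusted p = 0.00481), and stayed called after that scaling (1.05, adjusted p = 0.0346). Its log2 values at 48 h were 0.52 with 5G6 and -0.61 with 7F8, neither called. TRIB3, an ATF4 target, rose from 58.8 and 83.7 TPM in DMSO to 511 and 508 with 5G6 and 427 and 604 with 6D7 (log2 2.84 and 2.84, adjusted p = 0.00463 and 0.00173), and stood at 86.9 and 60.8 with 7F8. The 5G6 call for TRIB3 was lost without DMSO replicate 1 (adjusted p = 0.0855). CHAC1, which degrades glutathione, rose by 1.94 with 5G6 and 2.29 with 6D7, from 3.78 and 2.95 TPM to 15.1 and 16.4 and to 22.8 and 18.0. The CHAC1 calls were each lost without DMSO replicate 1 (adjusted p = 0.231 and 0.08), DMSO replicate 2 (0.187 and 0.058) or the compound's replicate 1 (0.192 and 0.0845), and the 5G6 call also without 5G6 replicate 2 (0.165). ASNS and PHGDH, of asparagine and serine synthesis, fell with 7F8 by 2.20 and 2.65 on the log2 scale (adjusted p = 0.00213 and 0.00326). SLC7A11 was called in none of these comparisons.

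Over the 8 group means, which share libraries, TPM scale and solvent, the members' profiles ran together to differing degrees, given here as description. Pearson's r was 0.928 for GCLM with HMOX1, 0.919 for NQO1 with SRXN1, 0.909 for NQO1 with GCLC and 0.906 for NFE2L2 with TXNRD1, and 0.21 for ME1 with SRXN1 or SLC7A11. Over the 16 libraries NFE2L2 with HMOX1 fell from 0.863 to 0.187. Of 10176 genes at a mean of 5 TPM or more, LMAN2 (0.97), TRMO (0.93) and BLOC1S5-TXNDC5 (0.93) had the profiles most like NFE2L2, and EXOSC6 (0.99), COTL1 (0.99) and NDUFV1 (0.98) those most like the mean of the 8 targets.

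Some member loci hold other genes whose reads could mix with theirs, since no source used here states that counting used strand. EID3 (3.34 to 18.6 TPM) lies inside TXNRD1 on the same strand, SLC7A11-AS1 (0.451 to 2.06 TPM) overlaps SLC7A11 on the other, and LOC107985423 (0 to 1.46 TPM) overlaps SRXN1. All were far below the members at these loci. FTH1 and AKR1B10 have near-identical copies elsewhere in the genome, and their values depend on how the authors' counting split such reads.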

How the data were processed

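Per the labels' protocols, polyA libraries were made with a NEBNext Ultra kit from TRIzol RNA after a DNase I step. Per the submitters' processing notes, STAR 2.6.1a, featureCounts 1.6.3, StringTie 2.0 and GRCh38 were used; strand was not given in the sources used here. The deposited tables list TPM per gene, with FPKM and coverage, which the authors computed per library; TPM was analysed here, and the ratio of deposited coverage to FPKM served only to read the aligned bases of each library. TPM was summed per gene name. Genes with TPM of at least 1 in 2 or more of the 16 libraries (15285 of 26182 with any TPM) were fitted with limma 3.58.1 (R 4.3.3) on log2(TPM + 1), with 8 group means, 8 residual degrees of freedom, a variance trend and Benjamini-Hochberg adjustment within each of 16 comparisons, two-sided; fold changes of low genes are understated on this scale. The fit was checked on simulated data.

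All 9 members were named, 16 further pathway genes always, and from each wider list up to 3 called genes with the smallest p per comparison; 1 named item is not reported here. Members and lists were chosen with earlier results of these data known. Alternatives were another scaling, TPM without TRNC and TRNY, another pseudocount (0.1), no filter, no variance trend, 1 time point, a replicate block, and leaving out each library.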

Additional observations from a re-analysis of the deposited data

Results flagged for a closer look

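HMOX1 differed between 6D7 and 7F8 at 48 h by 2.00 on the log2 scale (higher with 6D7 in 2 of 2 libraries, limma adjusted p = 0.0152), while against DMSO the mean of one compound lay above and that of the other below. Over the alternatives its adjusted p ran from 0.00657 to 0.212. TRNC was at 0 in both 6D7 libraries, and without TRNC and TRNY in the total the difference was 1.54 (adjusted p = 0.184).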

How the results depend on the processing

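The 9 members were uncalled against DMSO under both scalings, the pseudocount, the filter, the trend, the single time point and every omission. Only the replicate block moved this: 1 called with 5G6, 1 with 6D7 and 3 with 7F8 at 48 h (GCLC each time, adjusted p = 0.00768, 0.0325 and 0.00689, plus GCLM and ME1 with 7F8), and 1, 1 and 0 with the block and median-of-ratios scaling together, an alternative added after seeing the data. Of all tested genes, the block called 11.4%, 24.9% and 19.3% with 5G6, 6D7 and 7F8 at 48 h. With block and scaling together these shares were 10.4%, 13.5% and 15.3%. Between compounds at 48 h the block called 0.0196% of all genes (5G6 against 6D7), 1.5% (5G6 against 7F8) and 36.3% (6D7 against 7F8). Member calls between compounds at 48 h, 1 in the report, were 0 under either other scaling, 4 with the block, 0 with block and scaling, and 0 to 2 leaving out 1 library. The wider 86 genes called with 5G6 at 48 h, 4 in the report, were 11 with the block, 7 with block and scaling, 0 with 1 time point and 0 to 1 leaving out 1 library. With 6D7 the 15 were 8 with median-of-ratios scaling, 8 without TRNC and TRNY, 25 with the block, 7 with 1 time point and 3 to 21 leaving out 1 library. With 7F8 the 11 were 22 with the block, 17 with block and scaling, 5 with 1 time point and 1 to 8 leaving out 1 library. With 7F8 at 4 h, 0 became 2 without 7F8 replicate 1. The cause of these shifts was not tested.

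Members' changes of 0.4 or more were named one by one, a limit chosen after seeing the data. Of those 15, 1 changed sign, HMOX1 with 7F8 at 4 h (-0.1564 to 0.9917 leaving out 1 library, the first without 7F8 replicate 1). Of the 39 smaller ones, 25 changed sign when 1 library was left out and 8 with another scaling, and none was called under any alternative. With 2 libraries a group, their number limits the precision. The replicate numbers were not taken as pairs, because the labels tie them to no batch. The replicate differences did run together, correlating above 0.1 over genes in 25 of 28 pairs of groups (lowest 0.0576, median 0.328, highest 0.63). The main fit does not take out a difference that the replicate numbers share.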
